A study of Mus musculus with 16 samples.

Results

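Cd244, Ly9, Slamf7, Cd48, Slamf1, Cd84 and Slamf6 encode the 7 receptors of the signaling lymphocytic activation molecule (SLAM) family that lie side by side on mouse chromosome 1. They are 7 of 17885 genes to which at least 1 region of histone modification had been assigned. The family was chosen by the normalized H3K27ac reads of Cd84, which were seen to be high in P199L-ERG cells, so the H3K27ac values of the family are given as a description and nothing is supported with them. A region belonged to a gene when the assignment deposited with the regions named that gene, which gave 41 of 114597 H3K27ac regions, 15 of 60720 H3K9ac regions, 14 of 43128 H3K4me3 regions, 45 of 114913 H3K4me1 regions and 4 of 14721 H3K27me3 regions.

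The SLAM receptors are single-pass immunoglobulin-like proteins on blood cells. Most of them bind a copy of themselves on a neighbouring cell, whereas CD244 binds CD48, a member that is held in the membrane by a lipid anchor and has no cytoplasmic tail. The tails of the other receptors recruit the small adaptors SAP and EAT-2, and SAP in turn brings in the kinase FYN. CD244, CD48 and SLAMF1 (CD150) are used to separate stem cells from progenitors in mouse bone marrow. H3K27ac and H3K9ac are acetyl marks of active promoters and enhancers, H3K4me3 marks promoters, H3K4me1 marks enhancers and the edges of promoters, and H3K27me3 is laid down by Polycomb at silent genes.

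The study asked whether a substitution in ERG, an ETS-family transcription factor, changes the histone marks that ERG expression brings about. ER-Hoxb8 cells are C57BL/6 mouse myeloid progenitors held immature by an estrogen-dependent Hoxb8 protein, and all lines were kept undifferentiated. The lines carried human P199L-ERG, human WT-ERG or the empty lentiviral vector, in each case as 1 stably transduced population sorted for GFP. All 3 lines share the Hoxb8 fusion, and each of the 5 marks was measured by chromatin immunoprecipitation with sequencing (ChIP-seq) in 1 library per line. Both ERG lines are compared with the same empty vector libraries. A difference between constructs and a difference between 1 pair of cultures or libraries cannot be told apart here, and no p-value is given. The pooled IgG control was not analysed here.

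The tables held 13980539 to 16230439 reads in regions per H3K27ac library, 10268618 to 10992315 for H3K9ac, 19834069 to 22278560 for H3K4me3, 14508786 to 17144801 for H3K4me1 and 768125 to 980145 for H3K27me3. Levels are normalized reads, the deposited read count of a region times 1 factor per library, and a gene or the cluster has the sum over its regions. Differences are log2 ratios after a small pseudocount, with the 95% exact binomial interval of the reads in brackets, which covers counting error only. A gene or region was counted as past the fold at 1.5-fold. The H3K27ac library of P199L-ERG followed base composition. Over all regions the median log2 ratio of P199L-ERG against empty vector was 1.41 in the 10% of regions with the lowest GC content and -1.08 in the 10% with the highest, and that of WT-ERG against empty vector was -0.25 and 0.16. The H3K27ac regions of the SLAM genes had a median GC content of 45.3%, against 51.7% over all regions, so the main ratios are also given after an adjustment that compares a region with others of like GC content and signal. The cells had H3K4me3 over the start of 7 of 7 granulocyte-monocyte progenitor markers in all 3 lines, of 3 of 4 monocyte, 3 of 5 neutrophil, 3 of 5 B cell, 0 of 5 T cell, 1 of 3 NK cell, 3 of 4 erythroid, 1 of 4 mast cell and basophil and 2 of 4 megakaryocyte markers. H3K27ac over the start in all 3 lines gave the same counts except for 2 of 5 B cell, 0 of 3 NK cell and 0 of 4 erythroid markers. The share of all gene starts with either mark is not given here.

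Most of the H3K27ac of the cluster lay at 3 places, namely the promoters of Cd244 and Cd48 and the introns of Cd84. The 250 bases upstream of the starts of Cd244 and Cd48 are shown because these promoters carry the values below, and 300 bases from the middle of the largest Cd84 intronic H3K27ac region for the same reason. The Cd84 promoter, where H3K27ac was weak, is shown beside that intron for comparison. Capitals mark GGAA on either strand (TTCC where it lies on the other one), the core letters that ETS proteins recognise. The promoters are from RefSeq (mm10, plus strand) at chr1:171558943-171559192 for Cd244, chr1:171681742-171681991 for Cd48 and chr1:171839447-171839696 for Cd84. The Cd84 intronic window is on the plus strand at chr1:171844963-171845262.

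Cd244 promoter: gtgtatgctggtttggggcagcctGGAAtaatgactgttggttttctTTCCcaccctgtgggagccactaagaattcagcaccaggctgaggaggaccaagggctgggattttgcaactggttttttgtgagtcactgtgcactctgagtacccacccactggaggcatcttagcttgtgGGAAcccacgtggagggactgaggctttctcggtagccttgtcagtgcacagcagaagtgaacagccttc

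Cd48 promoter: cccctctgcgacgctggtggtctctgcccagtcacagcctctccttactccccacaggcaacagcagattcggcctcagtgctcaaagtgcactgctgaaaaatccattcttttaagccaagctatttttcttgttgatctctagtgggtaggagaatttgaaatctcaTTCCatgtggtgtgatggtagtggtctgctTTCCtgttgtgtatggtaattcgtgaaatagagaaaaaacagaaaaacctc

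Cd84 promoter: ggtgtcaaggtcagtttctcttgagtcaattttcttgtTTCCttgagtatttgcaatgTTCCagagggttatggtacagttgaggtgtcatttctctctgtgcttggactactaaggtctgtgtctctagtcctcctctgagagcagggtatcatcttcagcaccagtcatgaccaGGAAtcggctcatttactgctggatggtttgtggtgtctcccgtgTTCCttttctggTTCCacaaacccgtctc

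Cd84 intronic region: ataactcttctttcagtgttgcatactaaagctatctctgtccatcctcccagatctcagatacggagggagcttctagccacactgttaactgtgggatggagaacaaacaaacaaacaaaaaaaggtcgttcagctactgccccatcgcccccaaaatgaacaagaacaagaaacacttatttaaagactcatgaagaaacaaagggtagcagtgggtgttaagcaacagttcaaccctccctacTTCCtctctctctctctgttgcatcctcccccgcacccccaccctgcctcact

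GGAA occurred 3 times in the Cd244 promoter, 2 times in that of Cd48 and 5 times in that of Cd84. It is common, being present in 93.4% of 27025 RefSeq promoter windows of the same length. The intronic window of Cd84 held it 1 time, and 96.1% of the central windows of all 114597 H3K27ac regions had at least 1 match. The GC content was 53.2% for the Cd244 promoter, 46.0% for Cd48, 46.8% for Cd84 and 46.7% for the intronic window. These matches describe the letters only.

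The 7 genes span 394 kb (mm10), from the start of Cd244 at position 171559193 of chromosome 1 to the end of Slamf6 at 171953170, with Ly9 and Slamf7 on the minus strand. The 41 H3K27ac regions of the cluster together had 3738 normalized reads in P199L-ERG cells, 2195 in WT-ERG cells and 1802 in empty vector cells. The log2 ratio against empty vector was 1.05 (0.97 to 1.14) in P199L-ERG and 0.28 (0.19 to 0.38) in WT-ERG, and P199L-ERG against WT-ERG gave 0.77 (0.69 to 0.84). After the GC adjustment these became 0.61, 0.40 and 0.21, so the cluster stayed above the empty vector in both ERG lines while the gap between the ERG lines narrowed. The regions nearest to Cd84 carried much of this gap, since without them the ratios were 0.64 (0.53 to 0.74), 0.38 (0.27 to 0.49) and 0.26 (0.17 to 0.35), or 0.52, 0.47 and 0.043 after the GC adjustment.

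The other acetyl mark did not separate the ERG lines. The 15 H3K9ac regions had 2140 normalized reads in P199L-ERG, 2038 in WT-ERG and 1495 in empty vector cells. The ratio against empty vector was 0.52 (0.42 to 0.62) in P199L-ERG and 0.45 (0.35 to 0.55) in WT-ERG, and P199L-ERG against WT-ERG was 0.07 (-0.02 to 0.16). The GC adjustment left them at 0.55, 0.50 and 0.05. H3K9ac was lowest in empty vector cells at 13 of the 15 regions, against 37.4% of all H3K9ac regions.

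The methylation marks ordered the ERG lines differently. H3K4me3 summed to 2987 normalized reads in P199L-ERG, 2302 in WT-ERG and 1842 in empty vector cells, a ratio of 0.70 (0.61 to 0.78) for P199L-ERG and 0.32 (0.23 to 0.41) for WT-ERG against empty vector, or 0.50 and 0.36 after the GC adjustment. H3K4me1 summed to 3977 in P199L-ERG, 4652 in WT-ERG and 3084 in empty vector cells, so that here WT-ERG was highest. Its ratios against empty vector were 0.37 (0.30 to 0.43) in P199L-ERG and 0.59 (0.53 to 0.66) in WT-ERG, and P199L-ERG against WT-ERG was -0.23 (-0.29 to -0.16). After the GC adjustment these H3K4me1 ratios were 0.26, 0.45 and -0.19. The H3K4me3 ratio of P199L-ERG against WT-ERG was 0.38 (0.30 to 0.45), or 0.14 after the GC adjustment. Without the regions nearest to Cd84 it was 0.07 (-0.02 to 0.16), or 0.08 adjusted. Most of the unadjusted H3K4me3 difference between the ERG lines therefore lay at Cd84. For the regions nearest to Cd84 this ratio was 1.24, and 0.34 after the GC adjustment. H3K27me3 was sparse. Its 4 regions summed to 203 normalized reads in P199L-ERG, 191 in WT-ERG and 222 in empty vector cells, and none lay over the start of a SLAM gene.

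**Figure D1:**
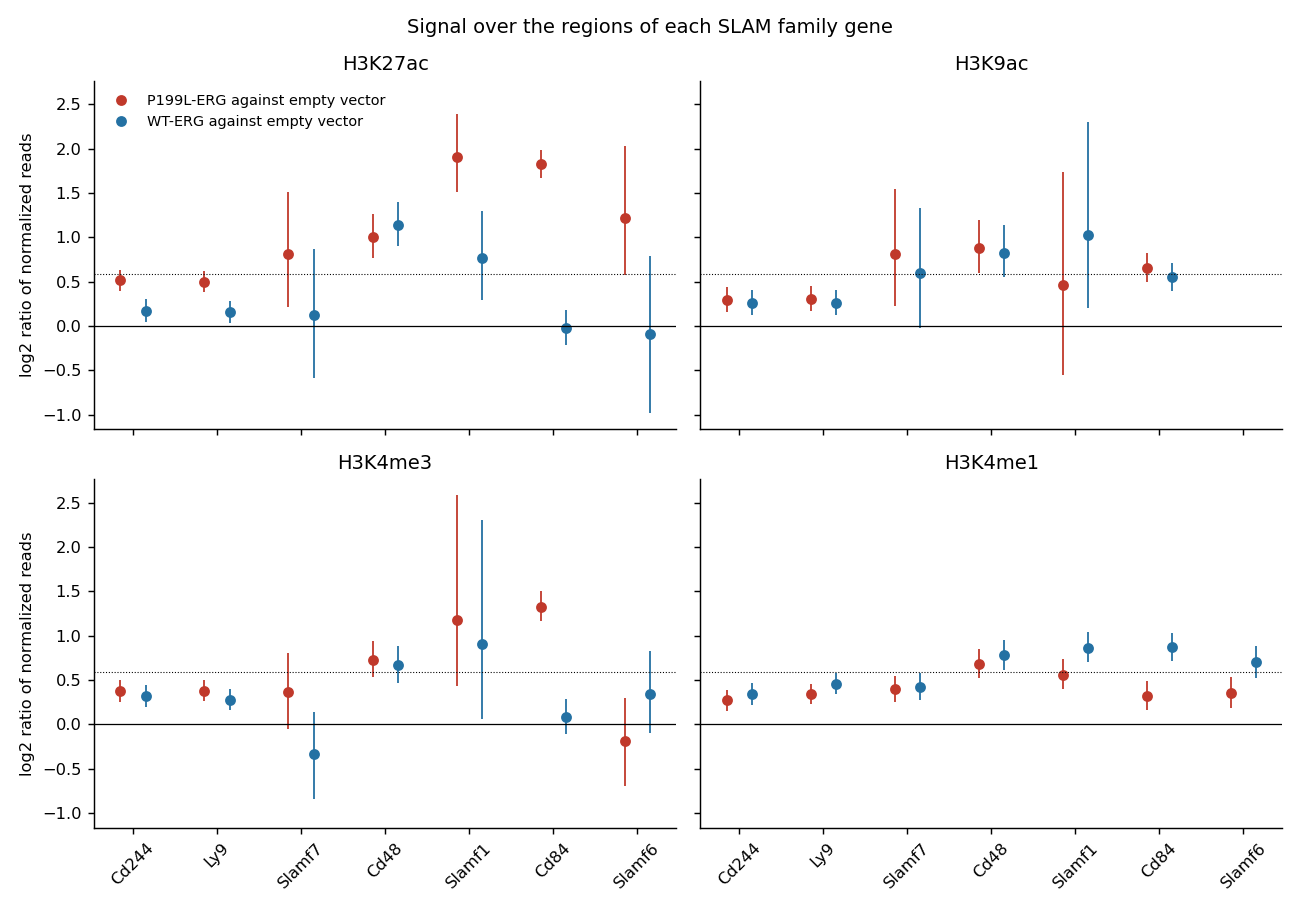
Log2 ratio of normalized reads against empty vector for each SLAM gene, in chromosome order, in 4 marks. Points are P199L-ERG (red) and WT-ERG (blue), bars are 95% counting intervals and the dotted line is 1.5-fold. Cd48 lay above the dotted line in both ERG lines in all 4 marks. Cd84 lay above it in P199L-ERG in H3K27ac, H3K9ac and H3K4me3, and in WT-ERG in H3K4me1. Slamf6 had no H3K9ac region.

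Counted by gene, 5 of 7 members (Cd48, Cd84, Slamf1, Slamf6 and Slamf7) were past the fold in H3K27ac in P199L-ERG against empty vector and 0 were lower, where 10.3% of 15478 genes were higher and 39.5% lower. With the GC adjustment 4 members were (background 7.22%). This contrast chose the family and nothing is read from the count. Only Cd48 and Slamf1 were past it in WT-ERG (background 5.24%). Between the ERG lines 4 members were higher in P199L-ERG (background 11.3%), and only Cd84 after the GC adjustment (background 3.23%). In H3K9ac 3 of 6 members were higher in P199L-ERG (Cd48, Cd84 and Slamf7; background 2.77%) and 3 of 6 in WT-ERG (Cd48, Slamf1 and Slamf7; background 3.38%), and 0 of 6 in P199L-ERG against WT-ERG (background 0.971%). After the GC adjustment H3K9ac had 2 of 6 higher in P199L-ERG (Cd48 and Slamf7; background 2.38%) and 2 of 6 in WT-ERG (Cd48 and Slamf1; background 3.03%), with Slamf1 lower in P199L-ERG against WT-ERG, 1 of 6 (background 1.28%). In H3K4me3 the higher members were Cd48, Cd84 and Slamf1 in P199L-ERG, 3 of 7 (background 5.57%), Cd48 and Slamf1 in WT-ERG, 2 of 7 (background 2.69%), and Cd84 and Slamf7 in P199L-ERG against WT-ERG, 2 of 7 (background 5.44%). After the GC adjustment these were Cd48 and Slamf1 in P199L-ERG, 2 of 7 (background 2.53%), the same 2 in WT-ERG (background 2.11%), and 0 of 7 in P199L-ERG against WT-ERG (background 2.08%). In H3K4me1 only Cd48 was higher in P199L-ERG, 1 of 7 (background 2.69%), against 4 of 7 in WT-ERG, namely Cd48, Cd84, Slamf1 and Slamf6 (background 11.2%), and 0 of 7 in P199L-ERG against WT-ERG (background 1.9%). Only Cd48 was higher in WT-ERG after the GC adjustment, 1 of 7 (background 6.05%). Neighbouring genes share regions, so these counts hold fewer independent loci than genes. Slamf7 had 1 H3K9ac region, nearest to Ly9, with a WT-ERG interval of -0.02 to 1.33 against empty vector. The 2 H3K9ac regions of Slamf1 were nearest to Cd84 and held 19 reads in P199L-ERG, 31 in WT-ERG and 12 in empty vector cells. Their P199L-ERG against WT-ERG interval was -1.55 to 0.22. These values belong to those places. The members' median H3K27ac ratio was 1.00 in P199L-ERG and 0.16 in WT-ERG against empty vector, where the median over all genes was -0.41 and -0.11, and their median H3K9ac ratio was 0.56 and 0.57 against -0.18 and -0.15 over all genes.

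Cd48, the ligand of CD244, was past the fold in each of the 4 active marks in P199L-ERG, and likewise in WT-ERG. Its promoter H3K27ac region had 375 normalized reads in P199L-ERG, 428 in WT-ERG and 194 in empty vector cells, so both ERG lines stood well above the control. The log2 ratio was 0.94 (0.69 to 1.22) in P199L-ERG and 1.13 (0.88 to 1.41) in WT-ERG, with -0.19 (-0.39 to 0.01) between the ERG lines, and 0.96 and 1.20 against empty vector after the GC adjustment. H3K9ac at the same promoter had 273 normalized reads in P199L-ERG, 266 in WT-ERG and 153 in empty vector cells. H3K4me3 there had 490.3 in P199L-ERG, 472 in WT-ERG and 303 in empty vector cells. The H3K9ac ratios were 0.82 (0.54 to 1.13) in P199L-ERG and 0.78 (0.50 to 1.09) in WT-ERG, and those of H3K4me3 0.69 (0.49 to 0.91) in P199L-ERG and 0.63 (0.43 to 0.86) in WT-ERG. After the GC adjustment they were 0.84 in P199L-ERG and 0.82 in WT-ERG for H3K9ac, and 0.75 in P199L-ERG and 0.72 in WT-ERG for H3K4me3.

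H3K4me1 at the Cd48 promoter differed little, with 158 normalized reads in P199L-ERG, 166 in WT-ERG and 155 in empty vector cells. Both sides of it had more H3K4me1 in the ERG lines. Upstream by 7993 bases there were 132 normalized reads in P199L-ERG, 115 in WT-ERG and 93.8 in empty vector cells. The ratio there was 0.48 (0.11 to 0.89) in P199L-ERG and 0.29 (-0.12 to 0.72) in WT-ERG, the latter within counting error. A region of 5950 bases centred 5570 bases downstream of the start, in an intron, had 190.0 normalized reads in P199L-ERG, 224 in WT-ERG and 76.8 in empty vector cells, a ratio of 1.26 (0.92 to 1.70) in P199L-ERG and 1.49 (1.15 to 1.94) in WT-ERG, or 1.04 and 1.20 after the GC adjustment. A pair of short H3K27ac regions lay inside it at 5966 and 7100 bases from the start. The first had 19 reads in P199L-ERG, 18 in WT-ERG and 4 in empty vector cells, and the second 27 in P199L-ERG, 7 in WT-ERG and 1 in empty vector cells, so both hold few reads.

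**Figure D2:**
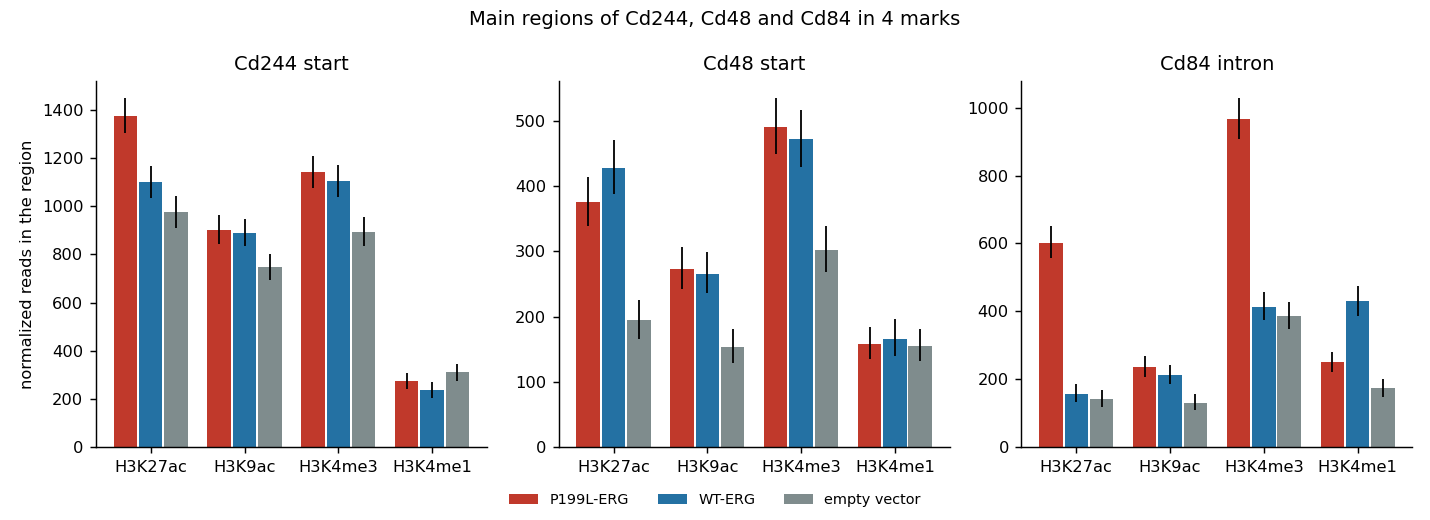
Normalized reads in the main region of 4 marks at the Cd244 start, the Cd48 start and a Cd84 intron, in P199L-ERG (red), WT-ERG (blue) and empty vector (grey) cells, 1 library each, with exact 95% Poisson intervals of the reads. At the Cd48 start both ERG lines exceeded empty vector in 3 marks and differed little in H3K4me1, and at Cd84 the H3K27ac and H3K4me3 bars were high in P199L-ERG and the H3K4me1 bar in WT-ERG.

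Cd244 (2B4), the receptor for CD48, had the longest H3K27ac region over a start in the cluster. This region of 5064 bases had 1375 normalized reads in P199L-ERG, 1102 in WT-ERG and 975 in empty vector cells. Per kb of region this was 272 in P199L-ERG, 218 in WT-ERG and 193 in empty vector cells, beside 308 in P199L-ERG, 351 in WT-ERG and 159 in empty vector cells for the shorter Cd48 promoter region. The ratios against empty vector were small, 0.49 (0.37 to 0.62) in P199L-ERG and 0.18 (0.04 to 0.31) in WT-ERG, or 0.40 and 0.29 after the GC adjustment. H3K9ac had 903 normalized reads in P199L-ERG, 889.6 in WT-ERG and 746 in empty vector cells, a ratio of 0.27 in P199L-ERG and 0.25 in WT-ERG, or 0.51 and 0.46 after the GC adjustment. H3K4me3 had 1141 in P199L-ERG, 1105 in WT-ERG and 893 in empty vector cells, a ratio of 0.35 in P199L-ERG and 0.31 in WT-ERG, or 0.47 and 0.37 adjusted. All of these were below 1.5-fold.

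H3K4me1 over the Cd244 start ran the other way, with 273 normalized reads in P199L-ERG, 235 in WT-ERG and 309 in empty vector cells. The ratio was -0.18 (-0.42 to 0.05) in P199L-ERG, within counting error, and -0.39 (-0.66 to -0.14) in WT-ERG. Away from the start the larger regions nearest to Cd244 had more in the ERG lines. The small one 10929 bases upstream did not, with 22 reads in P199L-ERG, 11 in WT-ERG and 20 in empty vector cells. A region 12716 bases upstream, nearest to Itln1, was high in WT-ERG alone. It had 17.7 normalized reads in P199L-ERG, 56.5 in WT-ERG and 18.0 in empty vector cells. A region centred 6088 bases upstream had 182 normalized reads in P199L-ERG, 212 in WT-ERG and 124 in empty vector cells. One 18775 bases downstream had 252 in P199L-ERG, 310.2 in WT-ERG and 141 in empty vector cells, a ratio of 0.82 in P199L-ERG and 1.12 in WT-ERG, or 0.69 and 1.00 adjusted. The annotated Cd244 transcript that covers this region also runs over Ly9 on the opposite strand.

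Cd84 encodes a self-binding receptor of myeloid cells, platelets and lymphocytes. All 23 of its H3K27ac regions were nearest to it, and together they had 1662 normalized reads in P199L-ERG, 461 in WT-ERG and 468 in empty vector cells. P199L-ERG stood apart, and WT-ERG and empty vector did not differ beyond counting error. The ratio was 1.82 (1.67 to 1.99) in P199L-ERG and -0.02 (-0.22 to 0.18) in WT-ERG against empty vector, and 1.85 in P199L-ERG against WT-ERG. These regions were the poorest in GC of the members, at 42.1%, and the adjusted ratios were 0.81, 0.21 and 0.60. P199L-ERG was past 1.5-fold against each of the others in both cases, but only just so against WT-ERG after the adjustment. These values chose the family and many of the 23 regions were called in P199L-ERG alone, so nothing is read from them.

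The largest Cd84 region, 2903 bases in an intron 5416 bases from the start, had 602 H3K27ac normalized reads in P199L-ERG, 157 in WT-ERG and 140.2 in empty vector cells. Its ratio against empty vector was 2.09 (1.82 to 2.39) in P199L-ERG and 0.16 (-0.19 to 0.52) in WT-ERG, or 1.27 and 0.45 after the GC adjustment. The next, 10601 bases from the start, had 296 in P199L-ERG, 73.0 in WT-ERG and 91.9 in empty vector cells. Of the 14 H3K27ac regions within the gene, P199L-ERG was highest at 13. The exception was a small one 9005 bases from the start, with 12.4 normalized reads in P199L-ERG, 8.23 in WT-ERG and 21.8 in empty vector cells. Many of the 14 were called in P199L-ERG alone and so entered the set through that line, and nothing is read from the count. At 1107 bases H3K27ac was 87.1 normalized reads in P199L-ERG, 29.8 in WT-ERG and 23.0 in empty vector cells, at 1830 bases 74.7 in P199L-ERG, 9.26 in WT-ERG and 19.5 in empty vector cells, and at 2627 bases 44.0 in P199L-ERG, 9.26 in WT-ERG and 6.89 in empty vector cells. Further in, it was 37.3 in P199L-ERG, 8.23 in WT-ERG and 10.3 in empty vector cells at 7334 bases, and 36.4 in P199L-ERG, 7.20 in WT-ERG and 8.04 in empty vector cells at 8399 bases. At the Cd84 start itself H3K27ac was weak, with 13 reads in P199L-ERG, 10 in WT-ERG and 12 in empty vector cells. A region 22111 bases upstream with a GC content of 55.0% had 37.3 normalized reads in P199L-ERG, 47.3 in WT-ERG and 25.3 in empty vector cells, and here WT-ERG was highest.

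The other marks of the Cd84 intron did not follow a single order. The largest H3K9ac region, at 1714 bases, had 363 normalized reads in P199L-ERG, 337 in WT-ERG and 254 in empty vector cells. H3K9ac over 1924 bases centred at 4898 bases had 235 normalized reads in P199L-ERG, 211 in WT-ERG and 130 in empty vector cells, a ratio of 0.84 (0.54 to 1.18) in P199L-ERG and 0.69 (0.38 to 1.03) in WT-ERG, and 0.79 and 0.67 after the GC adjustment. H3K4me3 over 5531 bases that begin just inside the gene had 966 in P199L-ERG, 414 in WT-ERG and 387 in empty vector cells, a ratio of 1.31 in P199L-ERG and 0.09 (-0.11 to 0.30) in WT-ERG, which the GC adjustment brought to 0.49 and 0.16. H3K4me1 over 6009 bases centred at 9219 bases had 249.6 in P199L-ERG, 429 in WT-ERG and 173 in empty vector cells, a ratio of 0.52 (0.25 to 0.82) in P199L-ERG and 1.29 (1.05 to 1.58) in WT-ERG, and 0.28 and 0.87 after the adjustment. Summed over the gene, H3K9ac had 854 normalized reads in P199L-ERG, 793 in WT-ERG and 542 in empty vector cells, with a ratio of 0.11 (-0.03 to 0.25) between the ERG lines. In H3K9ac, Cd84 therefore did not differ between the ERG lines beyond counting error. Its H3K27ac ratio between them was 1.85, or 0.60 after the GC adjustment. That H3K27ac value chose the family, so nothing is read from the difference between the acetyl marks. The H3K27ac and H3K4me3 libraries of P199L-ERG are also those whose ratios followed GC content most, with an H3K4me3 median of 0.88 in the 10% of regions lowest in GC and -0.46 in the 10% highest, against 0.25 and -0.35 for H3K9ac.

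**Figure D3:**
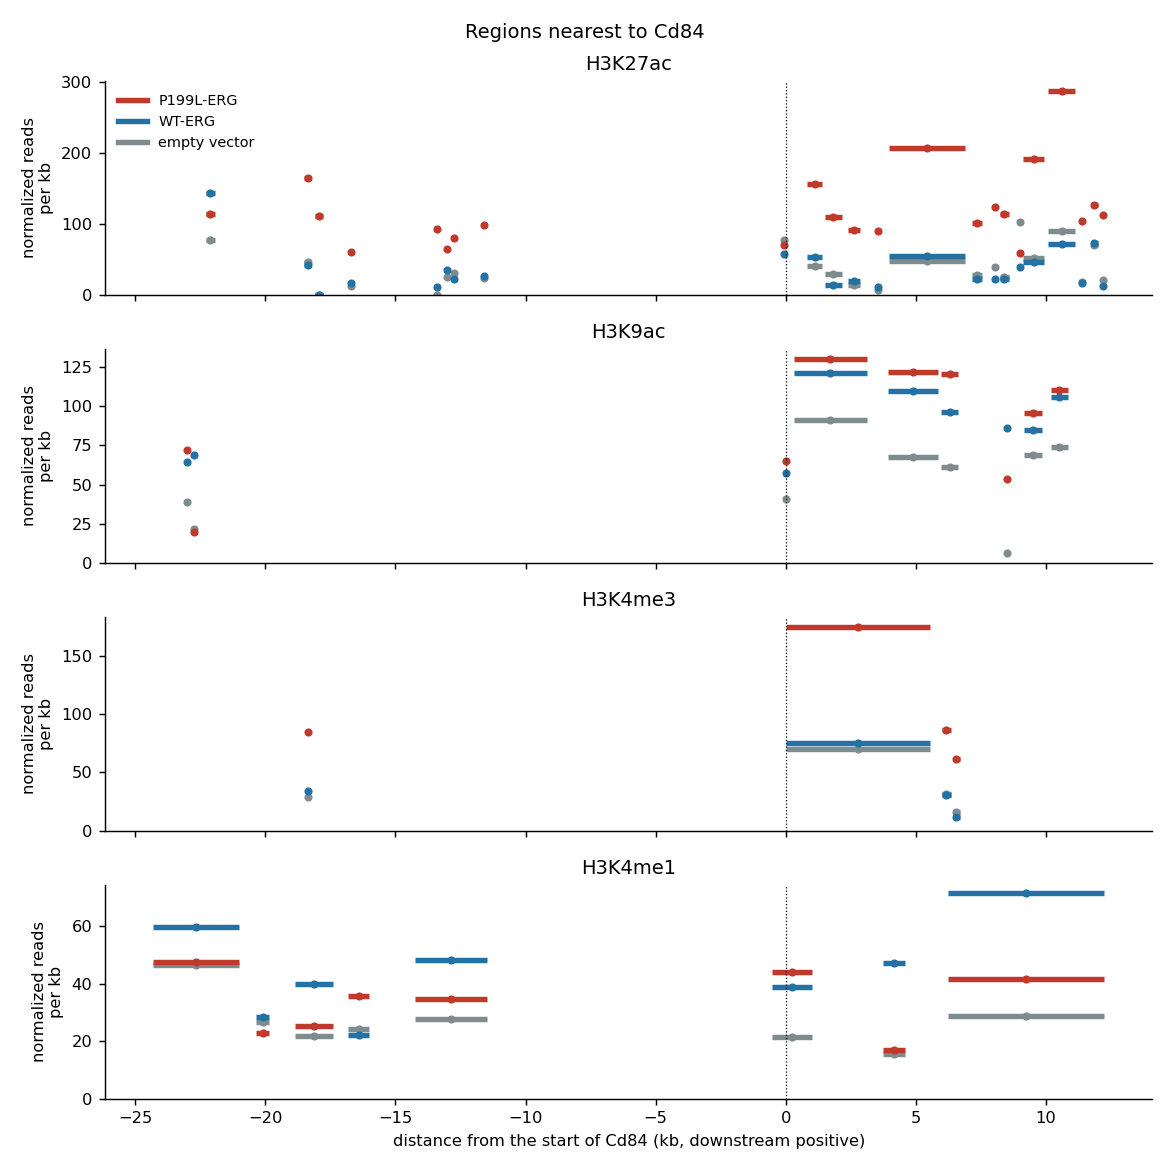
Normalized reads per kb in every region nearest to Cd84, by distance from its start in kb, in 4 marks. Each segment spans a region, in P199L-ERG (red), WT-ERG (blue) and empty vector (grey) cells. In the intron H3K27ac and H3K4me3 were highest in P199L-ERG, H3K9ac was close in both ERG lines and above empty vector, and the long H3K4me1 region was highest in WT-ERG.

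**Figure D4:**
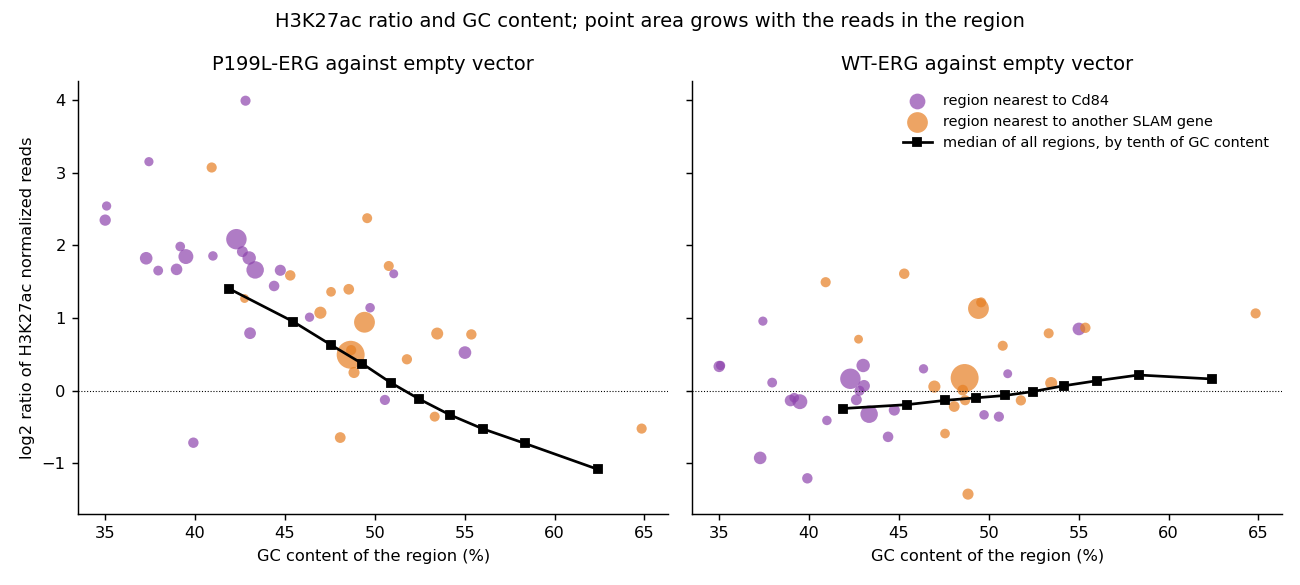
Log2 ratio of H3K27ac normalized reads against GC content (%) for the 41 SLAM regions, in P199L-ERG (left) and WT-ERG (right) against empty vector, with regions nearest to Cd84 in purple, the others in orange and point area growing with reads. The black line joins the medians of all regions in deciles of GC content, from 1.41 to -1.08 on the left. The Cd84 intronic region at 2.09 lay above that line and the Cd244 promoter at 0.49 close to it.

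Read against GC content, 31 of the 41 H3K27ac regions were past the fold in P199L-ERG against empty vector, where 31.8% of all regions were, and 18 of 41 after the adjustment (background 21%). In WT-ERG 11 of 41 were higher (background 17.7%). The peak caller had called 23 of the 41 regions in P199L-ERG alone, against 20.4% of all H3K27ac regions, and 8 in all 3 lines. By overlap with the other marks, 10 of the 41 were promoter-like (with H3K4me3 and H3K9ac), 27 enhancer-like (with H3K4me1 and no H3K4me3) and 4 neither. The shares of all H3K27ac regions in these classes, or called in all 3 lines, are not given here. Nothing is read from those counts. Over the starts of members the 3 H3K27ac regions had 1763 normalized reads in P199L-ERG, 1539.8 in WT-ERG and 1183 in empty vector cells, a ratio of 0.57 (0.46 to 0.69) in P199L-ERG and 0.38 (0.26 to 0.50) in WT-ERG, or 0.50 and 0.48 after the GC adjustment. The 38 regions elsewhere had 1975 in P199L-ERG, 655 in WT-ERG and 618 in empty vector cells, a ratio of 1.67 (1.54 to 1.82) in P199L-ERG and 0.08 (-0.08 to 0.25) in WT-ERG, or 0.77 and 0.26 adjusted.

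Slamf1 (CD150), a self-binding receptor of stem cells and lymphocytes, had no H3K27ac region nearest to it. All 10 regions assigned to it lay in Cd48 or upstream of Cd84, and their sum of 234 normalized reads in P199L-ERG, 105 in WT-ERG and 60.9 in empty vector cells belongs to those places. Its own chromatin was seen in H3K4me1. At the start it had 47.5 normalized reads in P199L-ERG, 50.7 in WT-ERG and 26.95 in empty vector cells. A region 5185 bases upstream had 121 in P199L-ERG, 110.7 in WT-ERG and 64.9 in empty vector cells, a ratio of 0.86 in P199L-ERG and 0.73 in WT-ERG (1.03 and 0.90 adjusted), and a small H3K4me3 region lay within it, with 20 reads in P199L-ERG, 20 in WT-ERG and 7 in empty vector cells. Both of these H3K4me1 regions were higher in each ERG line than in empty vector cells, and H3K27me3 regions of 14 to 32 reads per library lay in an exon near its end and downstream of it.

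Slamf6 (Ly108), a self-binding receptor known from T and NK cells, had no H3K27ac, H3K9ac or H3K4me3 over its start. H3K4me1 in an intron 4052 bases from the start had 109 normalized reads in P199L-ERG, 110.7 in WT-ERG and 41.9 in empty vector cells, so both ERG lines were high, with ratios of 1.29 in P199L-ERG and 1.32 in WT-ERG, or 0.95 and 0.76 adjusted. A second region 39420 bases downstream of the start, past the end of the gene, had 110.8 in P199L-ERG, 179 in WT-ERG and 62.9 in empty vector cells. H3K27ac inside it, at 40299 bases, had 48 reads in P199L-ERG, 21 in WT-ERG and 18 in empty vector cells, and a GC-adjusted ratio of 0.47 in P199L-ERG and 0.23 in WT-ERG. The regions around the start of Vangl2 were also assigned to Slamf6 and carried most of its H3K27me3, with 137 normalized reads in P199L-ERG, 109 in WT-ERG and 143 in empty vector cells.

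Slamf7 (CRACC), a self-binding receptor of NK, B and myeloid cells, likewise had no region of any mark over its start. Upstream by 8525 bases, H3K4me1 had 127 normalized reads in P199L-ERG, 141 in WT-ERG and 58.9 in empty vector cells, a ratio of 1.05 in P199L-ERG and 1.20 in WT-ERG, or 0.77 and 0.85 adjusted. Ly9 (CD229), a self-binding lymphocyte receptor, shared the large promoter region of Cd244 by assignment, and of its H3K27ac sum only 47.9 normalized reads in P199L-ERG, 28.8 in WT-ERG and 24.1 in empty vector cells were nearest to Ly9. Its start had H3K4me1 at 51.2 in P199L-ERG, 115 in WT-ERG and 51.9 in empty vector cells, high in WT-ERG alone. An element about 12 kb upstream of Ly9, in the interval before Slamf7, had all 4 active marks. H3K27ac there, the largest region assigned to Slamf7, had 39.2 normalized reads in P199L-ERG, 23.7 in WT-ERG and 21.8 in empty vector cells. H3K9ac was at 60.5 normalized reads in P199L-ERG, 51.4 in WT-ERG and 33.0 in empty vector cells. Next to it a GC-richer H3K4me1 region at 10161 bases upstream was highest in empty vector cells, with 95.9 in P199L-ERG, 55.4 in WT-ERG and 125 in empty vector cells.

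**Figure D5:**
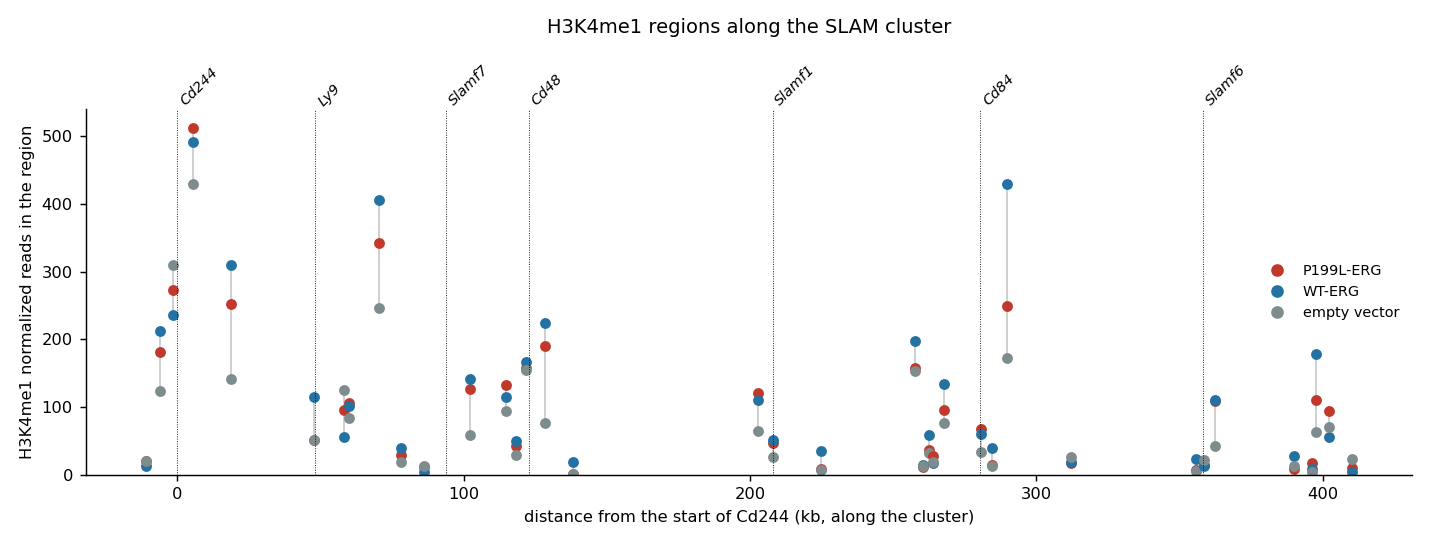
Normalized reads in H3K4me1 regions along the cluster, by distance in kb from the start of Cd244, in P199L-ERG (red), WT-ERG (blue) and empty vector (grey) cells. Dotted lines are gene starts, and the regions nearest to Itln1 or Vangl2 are not drawn. WT-ERG was highest at 26 of all 45 regions, among them the Cd84 intron at 429, and empty vector was highest over the Cd244 start at 309.

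Summed over the cluster, H3K4me1 differed more away from starts than over them, but single starts went both ways. The Ly9 start was at 1.09 (0.65 to 1.66) in WT-ERG against empty vector and the Cd244 start at -0.39 (-0.66 to -0.14), and the Cd84 start was at 0.96 (0.43 to 1.68) in P199L-ERG and 0.79 (0.21 to 1.54) in WT-ERG. The 6 regions over starts summed to 613 normalized reads in P199L-ERG, 640.0 in WT-ERG and 598 in empty vector cells, a ratio of 0.04 (-0.13 to 0.20) in P199L-ERG and 0.10 (-0.07 to 0.27) in WT-ERG. The 39 others summed to 3364 in P199L-ERG, 4012 in WT-ERG and 2486 in empty vector cells, a ratio of 0.44 (0.36 to 0.51) in P199L-ERG and 0.69 (0.62 to 0.77) in WT-ERG. After the GC adjustment the ratios over starts were 0.02 in P199L-ERG and 0.20 in WT-ERG. Those of the 39 others were 0.31 in P199L-ERG and 0.50 in WT-ERG. H3K4me1 was highest in WT-ERG at 26 of 45 regions, against 40.4% of all H3K4me1 regions. That count carries no GC adjustment, and the WT-ERG ratio also varied with GC content. Over all H3K4me1 regions its median against empty vector was 0.82 in the GC decile 1 (lowest), -0.24 in decile 8 and 0.32 in decile 10. The member regions had a median GC content of 45.7%, against 48.1% over all H3K4me1 regions.

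Of 21 genes of SLAM signalling (adaptors, kinases and phosphatases) 19 had H3K27ac, of which 1 was past the fold upward and 2 downward in P199L-ERG, with a median of -0.20, and 1 upward and 0 downward in WT-ERG, with a median of 0.03. Over all genes 10.3% were past it upward and 39.5% downward in P199L-ERG, and 5.24% upward and 4.33% downward in WT-ERG. The upward one was Fyn, the SAP-bound kinase, with 404 normalized reads in P199L-ERG, 440.2 in WT-ERG and 108 in empty vector cells. Its ratio was 1.88 (1.58 to 2.24) in P199L-ERG and 2.01 (1.70 to 2.37) in WT-ERG. In H3K4me1 Fyn had 2876 normalized reads in P199L-ERG, 2851 in WT-ERG and 1619 in empty vector cells, so that in both marks both ERG lines were above the control. The 2 lower ones in P199L-ERG were Sh2d1b2, an adaptor gene of the EAT-2 group, at -1.12 with regions of 64.1% GC, and Becn1, an autophagy gene, at -0.82, and after the GC adjustment these were -0.07 and 0.11. Csk, a kinase that restrains Src-family kinases, was at -0.50 and 0.24 adjusted.

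Of 23 genes on both flanks of the cluster 21 had H3K27ac, with 4 past the fold upward and 8 downward in P199L-ERG (median -0.43, and 0.045 after the GC adjustment), beside the same 10.3% and 39.5% of all genes, and 1 upward and 0 downward in WT-ERG (median 0.05). The upward ones were Casq1 at 1.45, Vangl2 at 1.21, Itln1 at 1.03 and Pea15a at 1.01, and Vangl2 shares all of its H3K27ac regions with Slamf6. Among the downward ones Usf1, a transcription factor gene, had 1026 normalized reads in P199L-ERG, 1993 in WT-ERG and 2481 in empty vector cells, and Kcnj9 was at -1.86 on 1.91 normalized reads in P199L-ERG, 17.5 in WT-ERG and 12.6 in empty vector cells. These values of single flank genes carry no GC adjustment. With it, only 2 flank genes were past the fold upward (background 7.22%) and 2 downward in P199L-ERG. The adjusted downward share of all genes is not given here. The other SLAM family genes of chromosome 1 lie apart from the cluster. Slamf9 had 287 normalized reads of H3K27ac in P199L-ERG, 251 in WT-ERG and 201 in empty vector cells, and Slamf8 1.91 in P199L-ERG, 21.6 in WT-ERG and 11.5 in empty vector cells.

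SLAM receptors are also genes of mast cells and monocytes, and H3K27ac over the starts of those markers differed between the lines. Mast cell and basophil starts summed to 346 normalized reads in P199L-ERG, 180.0 in WT-ERG and 129 in empty vector cells over 4 genes, of which Ms4a2 and Fcer1a had none in any line. Monocyte starts summed to 2108 in P199L-ERG, 1167 in WT-ERG and 1251 in empty vector cells over 4 genes, of which Csf1r had none in any line. Some other marker lists differed as well. Neutrophil starts summed to 1606 in P199L-ERG, 1151 in WT-ERG and 1233 in empty vector cells. Megakaryocyte starts summed to 339 in P199L-ERG, 403 in WT-ERG and 252 in empty vector cells. These sums carry no GC adjustment. Summed by gene, the adjustment lowered the median ratio of P199L-ERG against empty vector from 1.28 to 0.38 for mast cell and basophil markers. For monocyte markers the median went from 0.71 to 0.31. The part of cell types in the SLAM values was not tested. Over the 8 ratios of both ERG lines in the 4 active marks, the genes most like Cd84 among 7681 were Gm4070 and Olfr693, which share their regions (Euclidean distance 0.51), and Ccr3, an eosinophil chemokine receptor gene (0.56), all with GC contents of 42.6% to 43.0%. Those most like Ly9, the member with the most H3K27ac summed over the 3 lines by way of the shared Cd244 promoter region, were Cd244 (0.14), Ust (0.31) and Agbl1 (0.33).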

How the data were processed

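The data were 15 ChIP-seq libraries, 1 per mark and line. In the study's methods, adapters were removed with Cutadapt, reads under 30 nucleotides were discarded and uniquely placed reads on mm10 were kept with bowtie. MACS2 peaks of the lines were joined into 1 set of regions per mark, to which GREAT gave genes, so that a region can belong to 2 of them. For each region and library the authors deposited the number of reads as a count, whether a peak was called there, and a signal they had normalized. In the deposited files the signal is the count times 1 factor per library and is not divided by length. The origin of the factor and the treatment of duplicates are not given in the sources used here. The regions fitted the 21 chromosomes of the reference genome, with 0 beyond an end.

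Log2 ratios used a pseudocount of 10% of the median signal of the mark, and intervals of ratios are 95% Clopper-Pearson. The GC adjustment centred each line within 20 groups of GC content by 10 of mean signal. In the marker and gene lists a start is the annotated start (GENCODE M21) with 500 bases to each side. A region of a SLAM gene was over a start only when it held the annotated start itself. The Cd84 H3K4me3 region of 5531 bases begins just inside the gene, so it was counted as intronic. With the 500 bases it would lie over the start. Of the 7 members 6 matched a RefSeq promoter. Python 3.11.15, NumPy 2.4.6, pandas 2.3.3 and SciPy 1.17.1 were used, and ratios, intervals and adjustment were tested on simulated data. The members and gene lists were chosen with earlier results of these data known. Named regions are each member's largest H3K27ac region and the 3 largest increases and decreases per pair of lines among regions of at least median signal, and up to 4 genes per list by H3K27ac ratio in P199L-ERG. Regions of the other marks were chosen after their values were seen. One upstream H3K27ac region that the rule also takes is not reported here.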

Additional observations from a re-analysis of the deposited data

How the results depend on the processing

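Cluster ratios are given in the order P199L-ERG against empty vector, WT-ERG against empty vector and P199L-ERG against WT-ERG, where they moved beyond the counting interval. Scaled to total reads in regions, H3K27ac gave 1.48, 0.40 and 1.09, H3K9ac 0.72 and 0.61 (against empty vector only), H3K4me3 0.96 and 0.62 (P199L-ERG pairs only), and H3K4me1 0.45 and -0.16 (P199L-ERG pairs only). After the GC adjustment H3K27ac gave 0.61, 0.40 and 0.21, H3K4me3 0.50 and 0.14 (P199L-ERG pairs), and H3K4me1 0.26 and 0.45 (against empty vector). With regions called in all 3 lines only, H3K27ac gave 0.95 and 0.63 (P199L-ERG pairs). Without the regions nearest to Cd84, chosen after seeing the data, P199L-ERG pairs gave 0.64 and 0.26 in H3K27ac and 0.45 and 0.069 in H3K4me3, and H3K4me1 in P199L-ERG against WT-ERG gave -0.16. The number of members past the fold in H3K27ac became 3 in P199L-ERG against empty vector with regions called in all 3 lines, 1 in WT-ERG against empty vector with nearest genes only and also at 2-fold, and in P199L-ERG against WT-ERG 1 after the GC adjustment and 2 with regions called in all 3 lines. Slamf1 H3K27ac in P199L-ERG against WT-ERG was 1.14 in the deposited normalization and turned to -0.044 after the GC adjustment and to -0.33 with regions called in all 3 lines, and the cause was not tested. No other member value past the fold changed sign. A pseudocount 10 times larger moved 0 of 90 member values, the GC adjustment 21 of 90 and total-read scaling 22 of 90.

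No paired analysis was possible because each mark has 1 library per line and no replicate numbers. Regions with 20 or fewer reads in most libraries, as for Slamf1 H3K4me3 and the short H3K27ac regions of Cd48, are limited by depth.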

Other observations

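Several short H3K4me1 regions had reads mainly in WT-ERG cells. In an intron of Cd48, 15392 bases from the start, there was 1 read in P199L-ERG, 17 in WT-ERG and 1 in empty vector cells. In an intron of Slamf1, 16893 bases from the start, there were 9 reads in P199L-ERG, 30 in WT-ERG and 7 in empty vector cells. Upstream of Slamf6 by 2408 bases there were 7 reads in P199L-ERG, 20 in WT-ERG and 5 in empty vector cells. Regions of this size were picked after their values were seen, and over all 114913 H3K4me1 regions 12.2% had been called in WT-ERG alone.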
